A study of Mus musculus with 10 samples.

Results

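The genes described here are 31 genes of Schwann cells and peripheral nerve, taken by name out of 27151 genes measured in mouse tongue. They comprise 16 genes of myelinating Schwann cells, 4 genes of the Schwann lineage as a whole and 7 genes of non-myelinating and immature Schwann cells. The remaining 4 are grouped as genes of the node of Ranvier and the axon, among them Sema3b, which encodes a secreted semaphorin. All 31 were found in the table, and all 31 passed the filter on low values (at least 10 normalised reads in at least 4 libraries). The series holds RNA-seq of tongue from C57BL/6J mice, all of them exposed to 4NQO, a quinoline carcinogen that induces oral lesions. One group received SP2509, an inhibitor of the histone demethylase LSD1 (6 libraries), and the other received vehicle (4 libraries). Titles of the treated libraries carry a suffix, SP2509h, whose meaning is unexplained. Age, sex, dose and duration of treatment are not stated in the labels, and nothing in them ties a library to a separate animal. The p-values therefore cover library-to-library variation, part of which may be technical.

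Schwann cells are the glia of peripheral nerve. Myelinating Schwann cells wrap single large axons in compact myelin, a stack of membrane rich in galactolipids and held together by myelin proteins, under the control of the transcription factors SOX10, POU3F1 and EGR2. Non-myelinating (Remak) Schwann cells bundle small axons without myelin and keep adhesion molecules and receptors of the immature cell. Myelin is interrupted at nodes of Ranvier, where sodium channels cluster, and potassium channels lie beneath the myelin beside each node. The tongue is densely innervated, with motor fibres to its muscle and sensory and taste fibres to its mucosa.

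Whole reads behind the normalised values summed to 15748571 to 19375555 per SP2509 library and to 9180844 to 14768955 per vehicle library, and mitochondrial genes took 23.98% to 32.2% of the reads in SP2509 and 35.3% to 52.1% in vehicle. One read was worth 0.727 to 0.873 normalised reads in SP2509 and 0.898 to 1.85 in vehicle, so low genes were measured more coarsely in vehicle. Within SP2509, replicate 1 resembled replicate 2, and replicate 4 resembled replicate 5, more than the libraries of all remaining within-group pairs did for genes with 50 reads or more. Each of these pairs was averaged and counted as 1, which leaves 4 SP2509 units for means and SDs. SP2509 replicates 4 and 5 also stood apart by 6 genes of lingual glands, whose sums there were 330358 and 341452 normalised reads, while the remaining SP2509 libraries had 22.3 to 855 and vehicle 37.1 to 491. Markers of fibroblasts summed to 11102 to 13839 in SP2509 and 9829 to 12458 in vehicle, markers of muscle to 243798 to 681377 in SP2509 and 126501 to 297802 in vehicle, and markers of keratinocytes to 50843 to 252532 in SP2509 and 83772 to 122133 in vehicle. SP2509 replicate 6 had the highest muscle sum and the lowest keratinocyte sum of all 10 libraries.

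The 31 listed nerve transcripts tended to be less abundant in SP2509 tongues than in vehicle tongues, with few genes past the test. The list was chosen with earlier results of these data known. Its shares therefore describe the list and are no independent evidence about nerve as a whole. Of the 31 genes, 5 were lower in SP2509 at an adjusted p under 0.05 (limma over all 17088 genes tested, Benjamini-Hochberg), which is 16.1% of them, beside 4.15% of all genes tested. These were Cnp and Ncmap among the myelin genes, Gap43 and Ncam1 among the non-myelinating and immature genes, and Kcna1 at the axon. None of the 31 was higher, beside 4.95% of all genes tested. None was higher at an unadjusted p under 0.05 either, a rule for which the share of all genes was not counted. edgeR and DESeq2 called none of the 31 higher, beside 912 and 1606 of all 17088 genes tested. The log2 fold change (SP2509 minus vehicle, on the log2(normalised reads + 1) scale) was below 0 for 28 of the 31 genes, beside 48.1% of all genes tested. In this fit the median was -0.61 for the 31 genes and 0.02 for all genes tested. Under quantile scaling 29 of 31 were below 0, with a median of -0.006 for all genes. Scaling to reads outside mitochondrial genes also gave 29 of 31, but there the median of all genes was itself lower, at -0.13. In edgeR it was 27 of 31, with a median of 0.05 for all genes. The share of all genes below 0 was not counted in these alternatives. Fewer cells of a type and less RNA per cell cannot be told apart in these bulk libraries. The libraries also differed in the gland, muscle and keratinocyte sums given above. The part of that tissue mix in the fold changes was not tested.

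The calls were weak. With the close pairs merged, no gene of the genome passed limma (lowest adjusted p = 0.0718). At an unadjusted p under 0.05 in that fit, 11 of the 31 genes (35.5%) were lower and none higher, beside 9.67% of all genes lower. The share of all genes higher was not counted in that fit. On the whole reads edgeR called 3 of the 31 lower (Cnp, Kcna1 and Ncam1), beside 3.42% of all genes. DESeq2 called 12 of the 31 lower, beside 8.16% of all genes, and with the close pairs summed it called 5 (Cdh19, Cnp, Gap43, Kcna1 and Ncam1), beside 4.72%. edgeR with the close pairs summed called 0 genes of the 31 and 0 of all genes. Without SP2509 replicate 6 limma called 14 of the 31 lower, beside 8.89% of all genes. Without SP2509 replicate 1, SP2509 replicate 4 or vehicle replicate 1 it called 0 of the 31. Of all genes it called 312, 356 and 106 lower in these fits, fewer than the 709 of the main fit.

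**Figure D1:**
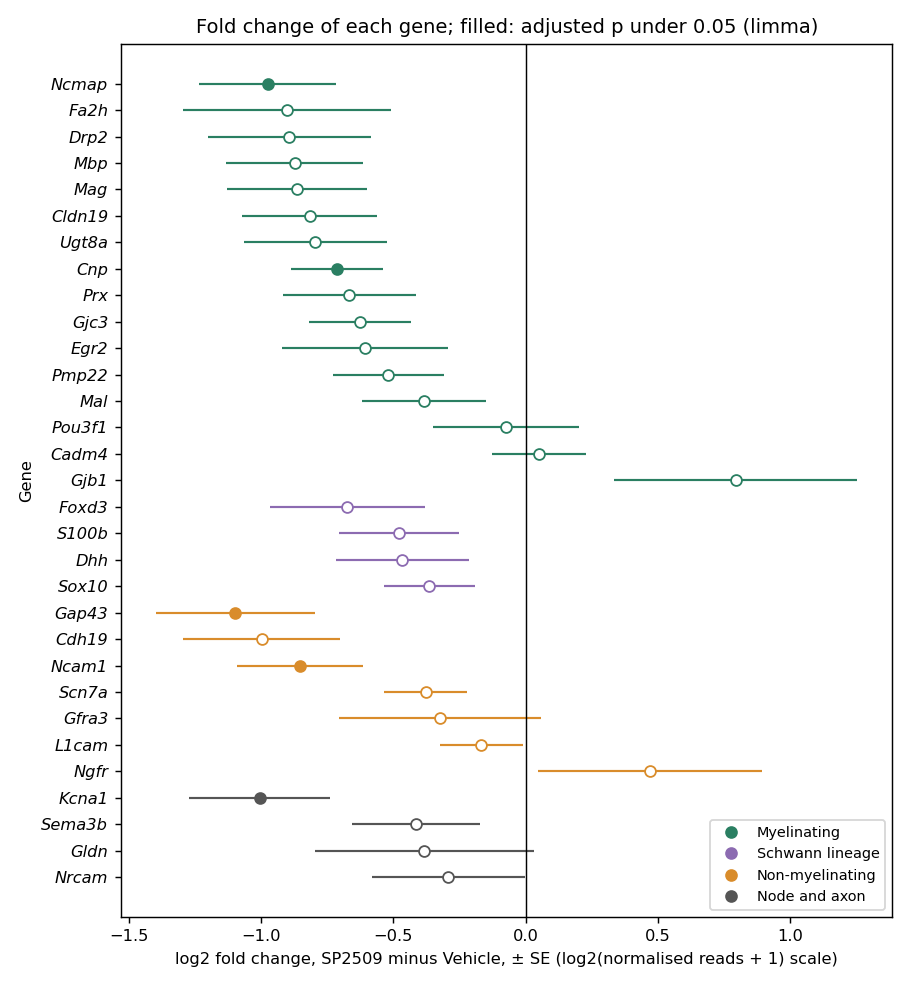
log2 fold change of each of the 31 genes (x axis, SP2509 minus Vehicle, bars are the SE from limma), grouped by class on the y axis. Filled points are the 5 genes past an adjusted p of 0.05; 28 of 31 points lie left of 0, and Gjb1, Ngfr and Cadm4 lie right of it.

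Per length of exon, the most abundant of the 31 genes coded for myelin proteins. Pmp22, a membrane protein of compact myelin that fibroblasts and epithelia also make, averaged 902 normalised reads per kb of exon in SP2509 and 1221 per kb in vehicle. Mbp, the myelin basic protein that zips the cytoplasmic faces of the membrane together, followed at 228 per kb in SP2509 and 388 per kb in vehicle. Cnp was at 141 per kb in SP2509 and 220 per kb in vehicle, and Ncmap at 88.9 per kb in SP2509 and 151 per kb in vehicle. The lowest of the 31 was Nrcam, at 1.15 per kb in SP2509 and 1.45 in vehicle. The called myelin genes, for both of which a promoter window was in the RefSeq table (GRCm38.p6), are shown with their first window, from 250 bases before to 50 bases after the start, as the myelin genes past the test in limma. Capitals mark the SOX-type motif AACAAAG.
Cnp, chr11:100574689-100574988, plus strand: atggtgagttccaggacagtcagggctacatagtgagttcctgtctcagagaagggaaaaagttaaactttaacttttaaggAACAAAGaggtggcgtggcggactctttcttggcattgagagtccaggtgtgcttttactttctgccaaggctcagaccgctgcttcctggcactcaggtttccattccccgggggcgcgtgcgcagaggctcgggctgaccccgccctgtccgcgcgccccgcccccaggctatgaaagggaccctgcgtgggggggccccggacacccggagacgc
Ncmap, chr4:135398178-135398477, minus strand: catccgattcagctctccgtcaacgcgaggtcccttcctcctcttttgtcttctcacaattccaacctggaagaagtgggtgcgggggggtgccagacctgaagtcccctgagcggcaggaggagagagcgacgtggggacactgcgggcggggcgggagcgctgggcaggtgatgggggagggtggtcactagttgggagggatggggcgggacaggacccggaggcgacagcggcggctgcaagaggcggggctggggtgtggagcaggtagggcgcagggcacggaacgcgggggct

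The Cnp window held AACAAAG 1 time, its first base 168 bases upstream of the start, and the Ncmap window held none of the 4 motifs searched, on either strand. The motifs were AACAAAG with the shorter ACAAAG inside it, and the EGR-type motif GCGTGGGCG with the shorter GTGGGCG inside it. AACAAAG was found in 5.85% of all 32851 windows, ACAAAG in 18.7%, GCGTGGGCG in 0.612% and GTGGGCG in 7.97%. Of the 31 genes, 20 had at least 1 window, and these had 35 windows in all. AACAAAG lay in 1 of the 35 (2.86%, Cnp), ACAAAG in 5 (14.3%, of Cnp, Gjb1 and Mag), GCGTGGGCG in 1 (2.86%, Scn7a) and GTGGGCG in 6 (17.1%, of Cadm4, Cldn19, Egr2, Gjb1 and Scn7a).

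Cnp encodes a nucleotide phosphodiesterase that keeps cytoplasmic channels open within myelin (chromosome 11, 100574904 to 100591729, GRCm38). It stood at 466, 520, 512, 411, 363 and 667 normalised reads in SP2509 replicates 1 to 6, against 755, 1052, 695 and 697 in vehicle replicates 1 to 4. Every SP2509 library lay below every vehicle library, with SP2509 replicate 6 closest to vehicle. The means were 515 ± 116 in SP2509 and 799.7 ± 170 in vehicle (SD, n = 4 units and 4 libraries), and Cnp fell by 0.71 on the log2 scale (SE 0.17, limma adjusted p = 0.0299, 0.112 with pairs merged). Its exons share 154 bases with Dnajc7 on the opposite strand, and the strand setting of the counting is not given in the sources used here. Dnajc7 averaged 1721 ± 138 normalised reads in SP2509 and 1790 ± 211 in vehicle (log2 fold change -0.09 ± 0.11 SE, limma adjusted p = 0.662).

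Ncmap encodes a small membrane protein of non-compact myelin (chromosome 4, 135369576 to 135398227). It stood at 178, 170, 181, 109.5, 120 and 322 normalised reads in SP2509 replicates 1 to 6, against 408, 361, 280 and 298 in vehicle replicates 1 to 4. SP2509 replicate 6 lay inside the vehicle range and the other 5 SP2509 libraries lay below it. Ncmap fell by 0.98 on the log2 scale (SE 0.26, limma adjusted p = 0.0379, 0.136 with pairs merged), at 198 ± 88.1 in SP2509 and 337 ± 58.7 in vehicle.

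The other myelin structural genes did not pass. Mbp stood at 1861, 1944, 1892, 1135, 1235 and 2756 normalised reads in SP2509 replicates 1 to 6, against 3328, 4832, 2400 and 2585 in vehicle replicates 1 to 4 (log2 fold change -0.87 ± 0.26 SE, limma adjusted p = 0.0544). SP2509 replicates 1 to 5 lay below all vehicle libraries and replicate 6 lay above vehicle replicates 3 and 4. Mag, the glycoprotein of the membrane that faces the axon, stood at 73.0, 73.4, 138, 72.2, 56.7 and 94.4 in SP2509 and at 122, 238, 138 and 121 in vehicle (-0.86 ± 0.27, limma adjusted p = 0.060). The groups of Mag overlapped through SP2509 replicate 3. Drp2 and Prx encode partners in a complex that anchors the outer myelin membrane to the basal lamina. Drp2 averaged 642 ± 244 in SP2509 and 1116 ± 459 in vehicle (-0.89 ± 0.31, limma adjusted p = 0.0849), and Prx 718 ± 208 in SP2509 and 1059 ± 299 in vehicle (-0.67 ± 0.25, limma adjusted p = 0.107). Exons of Prx share 300 bases with the antisense gene Gm15541, which had 188 reads in all. Pmp22 averaged 2123 ± 589 in SP2509 and 2874 ± 838 in vehicle (-0.52 ± 0.21, limma adjusted p = 0.131). Mal, a proteolipid of myelin and of stratified epithelia, was at -0.38 ± 0.23 (limma adjusted p = 0.304), with 164 to 326 in SP2509 and 232 to 424 in vehicle.

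**Figure D2:**
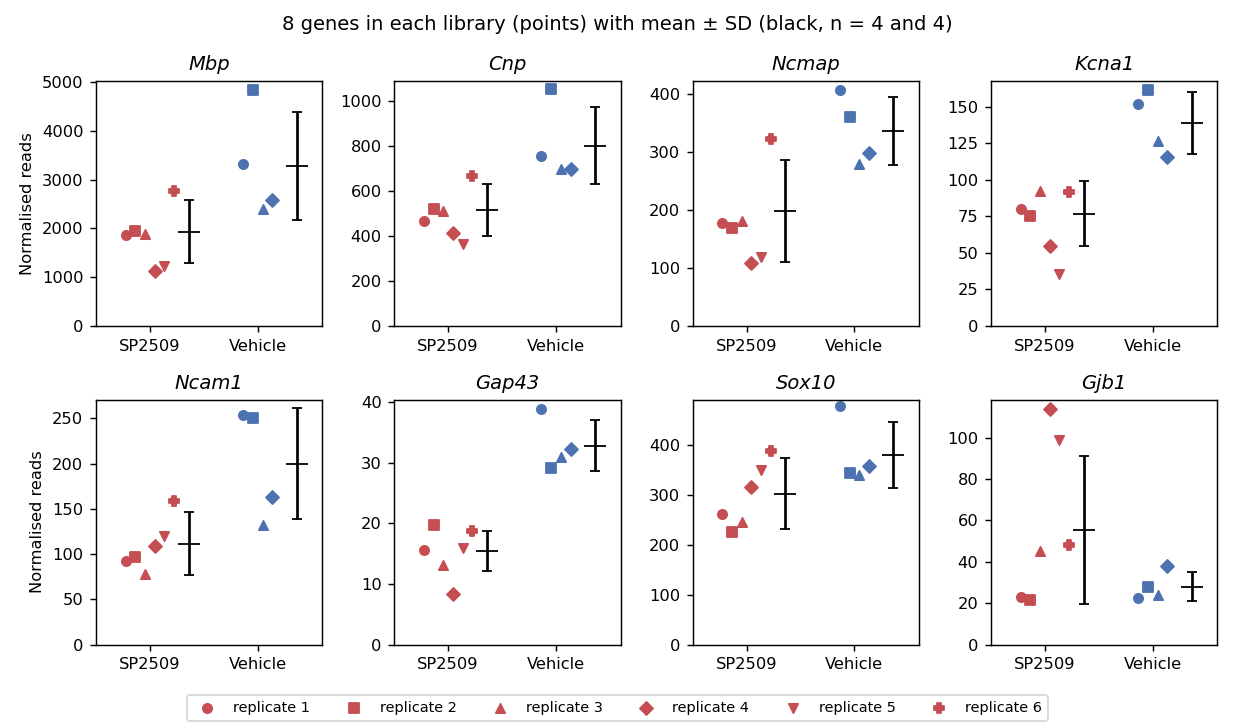
Normalised reads (y axes, from 0) of 8 genes in each library, SP2509 left and Vehicle right; point shapes give the replicate number, and black bars the mean ± SD over 4 SP2509 units and 4 Vehicle libraries. The SP2509 points of Cnp, Kcna1 and Gap43 all lie below the Vehicle points, and Gjb1 is highest in SP2509 replicates 4 and 5.

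Junction and adhesion genes of myelin had fold changes of both signs, and none of the 4 passed. Cldn19, which encodes the claudin of tight junctions within the Schwann cell, averaged 213 ± 57.0 normalised reads in SP2509 and 364 ± 142 in vehicle (log2 fold change -0.82 ± 0.25 SE, limma adjusted p = 0.0616). Gjc3, a connexin of Schwann cells, stood at 118, 99.8, 151, 91.2, 80.7 and 134 in SP2509 and at 191, 163, 180 and 150 in vehicle (-0.63 ± 0.19, limma adjusted p = 0.0591). Only SP2509 replicate 3 reached the vehicle range of Gjc3. Cadm4, the Schwann cell adhesion molecule that binds the axon, was at 0.05 ± 0.18 (limma adjusted p = 0.883), and its sign turned to -0.04 under quantile scaling and -0.10 under scaling to reads outside mitochondrial genes. Gjb1, the connexin 32 of non-compact myelin, which liver and glands also make, stood at 23.1, 21.4, 45.4, 114, 98.9 and 48.0 in SP2509 and at 22.3, 27.6, 23.9 and 37.7 in vehicle (0.80 ± 0.46, limma adjusted p = 0.277). Its highest values were in SP2509 replicates 4 and 5, the libraries with the high gland sums given above, and the part of gland RNA in Gjb1 was not tested. Of the 16 myelinating genes, 13 had their lowest value of all 10 libraries in replicate 4 or 5 of SP2509. The share of all genes lowest in these libraries was not counted.

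The galactolipid enzymes and the transcription factors of myelination did not pass either. Fa2h, which hydroxylates the fatty acids of myelin lipids, averaged 79.5 ± 39.0 normalised reads in SP2509 and 123 ± 50.01 in vehicle (-0.90 ± 0.39, limma adjusted p = 0.158). Ugt8a, the ceramide galactosyltransferase, stood at 54.4, 49.5, 63.7, 58.9, 50.2 and 116 in SP2509 and at 137, 126, 71.8 and 113 in vehicle (-0.79 ± 0.27, limma adjusted p = 0.0805). Only SP2509 replicate 6 reached the vehicle range of Ugt8a. Egr2, the master factor of the myelinating cell and also an immediate early gene, stood at 69.3, 80.8, 111, 34.8, 45.8 and 76.5 in SP2509 and at 124, 130.5, 85.9 and 70.9 in vehicle (-0.61 ± 0.31, limma adjusted p = 0.229). Pou3f1, which promotes the onset of myelination and is also expressed in keratinocytes, ranged from 70.5 to 197 in SP2509 and from 119 to 166 in vehicle (-0.07 ± 0.27, limma adjusted p = 0.891), with a sign that changed to 0.04 in edgeR on the whole reads.

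The 4 genes of the Schwann lineage as a whole had log2 fold changes between -0.67 and -0.36, and none passed. Sox10, the lineage factor of Schwann cells, which melanocytes and salivary glands also express, stood at 261, 226, 246, 316, 349 and 388 normalised reads in SP2509, against 478, 344, 339 and 358 in vehicle (-0.36 ± 0.17 SE, limma adjusted p = 0.188). SP2509 replicates 1 to 4 lay below every vehicle library, and replicates 5 and 6 lay inside the vehicle range. In SP2509 replicates 4 and 5, where Mbp was lowest, Sox10 was thus above SP2509 replicates 1 to 3. S100b, a calcium-binding protein of Schwann cells, fat and cartilage, showed the same order, with 168 and 162 in SP2509 replicates 4 and 5 and 97.6, 101 and 109 in replicates 1 to 3, against 117 to 217 in vehicle (-0.48 ± 0.23, limma adjusted p = 0.189). The sum of 5 adipocyte markers was 1657 and 1671 in these same libraries, 75.9 to 208 in the remaining SP2509 ones and 37.1 to 164 in vehicle, and the part of fat in S100b was not tested. Foxd3, a neural crest factor that restrains differentiation, stood at 47.7, 49.5, 86.4, 47.3, 26.9 and 69.2 in SP2509 and at 66.8, 87.5, 76.0 and 103 in vehicle (-0.67 ± 0.29, limma adjusted p = 0.157), and SP2509 replicates 3 and 6 lay inside its vehicle range. Dhh, the hedgehog ligand by which Schwann cells organise the nerve sheath, averaged 81.8 ± 24.6 in SP2509 and 100.4 ± 9.45 in vehicle (-0.47 ± 0.25, limma adjusted p = 0.248). Its exons share 1107 bases with an antisense gene of 22 reads in all, and 546 bases with Rhebl1 on the same strand. Rhebl1 averaged 153 ± 42.4 in SP2509 and 236 ± 66.8 in vehicle, and reads of the shared bases cannot be assigned between them.

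Melanocytes share this lineage. Of 6 markers listed for them, 4 were tested and none passed, and they summed to 190 to 299.5 normalised reads in SP2509 and to 241 to 280 in vehicle. Mitf, which many other cells express, was at -0.34 ± 0.22 (limma adjusted p = 0.33).

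**Figure D3:**
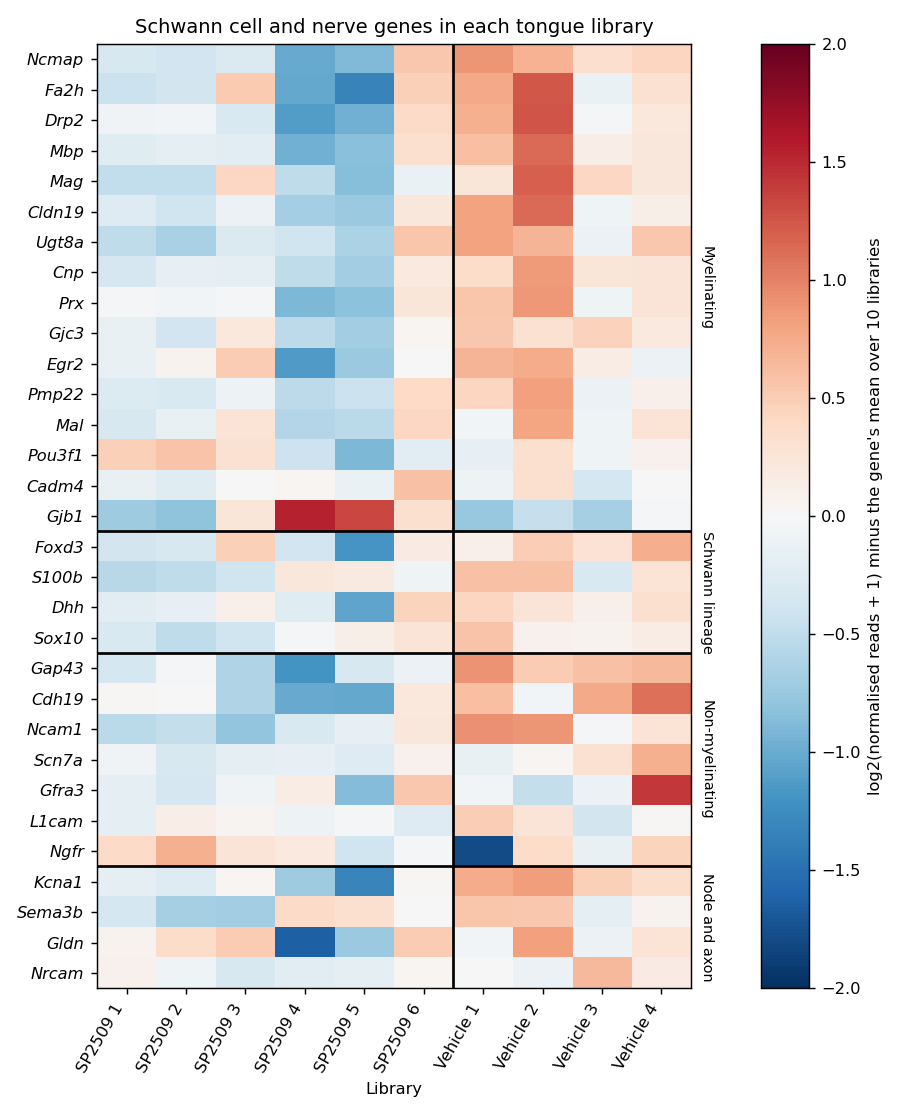
Deviation of log2(normalised reads + 1) from each gene's mean over the 10 libraries (colour), with genes in rows by class and libraries in columns, SP2509 left of the black line and Vehicle right of it. Most myelinating genes are lowest in SP2509 replicates 4 and 5 and highest in Vehicle replicate 2, while Gjb1 is highest in SP2509 replicate 4.

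Among the 7 genes of non-myelinating and immature Schwann cells, Gap43 and Ncam1 were lower, and the other genes spread from -0.998 to 0.47 on the log2 scale. Gap43, a growth cone protein of regenerating axons and immature Schwann cells (chromosome 16, 42248442 to 42340651), stood at 15.6, 19.8, 13.1, 8.30, 16.0 and 18.7 normalised reads in SP2509 and at 38.9, 29.2, 30.97 and 32.3 in vehicle. Every SP2509 library lay below every vehicle library, on 115 reads in all in SP2509 and 98 in vehicle. Gap43 fell by 1.10 on the log2 scale (SE 0.30, limma adjusted p = 0.0420, 0.105 with pairs merged), the largest fall of the 31 genes in this fit.

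Ncam1 encodes the neural cell adhesion molecule, which denervated muscle and neuromuscular junctions also carry (chromosome 9, 49502136 to 49798925). It stood at 92.4, 96.5, 77.7, 109, 120 and 159 normalised reads in SP2509 and at 254, 250, 132 and 163 in vehicle. SP2509 replicate 6 lay above vehicle replicate 3, and the other SP2509 libraries lay below all of vehicle. Ncam1 fell by 0.85 (SE 0.24, limma adjusted p = 0.0449, 0.140 with pairs merged). Of 8 genes of denervated or regenerating muscle and the neuromuscular junction, 7 were tested and none passed (median 0.20). Their sums were 393 to 1201 in SP2509 and 375 to 587 in vehicle. Sums of 4 natural killer cell genes, given as description and not as a source of Ncam1 in mouse, were 16.3 to 24.1 in SP2509 and 32.2 to 39.5 in vehicle. Klrk1, which T cells also express, made up most of that sum in every library, while Ncr1, Klrb1c and Eomes were at 0 in at least 1 library each. The part of muscle and its junctions in Ncam1 was not tested.

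Cdh19, a cadherin of the early Schwann lineage, stood at 165, 161, 106, 79.6, 79.3 and 188 normalised reads in SP2509 and at 247, 155, 273 and 347 in vehicle (-0.998 ± 0.30 SE, limma adjusted p = 0.0544). Vehicle replicate 2, the library highest in 10 of the 16 myelinating genes, was the lowest vehicle library in Cdh19. How many of all genes were highest in vehicle replicate 2 was not counted. Scn7a, the sodium-sensing channel of non-myelinating Schwann cells, ranged from 368 to 486 in SP2509 and from 412 to 752 in vehicle (-0.38 ± 0.16, limma adjusted p = 0.141). L1cam, the adhesion molecule that holds small axons in Remak bundles, ranged from 304 to 402 in SP2509 and from 284 to 514 in vehicle (-0.17 ± 0.16, limma adjusted p = 0.517), and 100 bases of its exons are shared with Arhgap4 (-0.45 ± 0.22, limma adjusted p = 0.1996). Gfra3, the receptor for the growth factor artemin, ranged from 19.6 to 53.7 in SP2509 and from 26.1 to 99.7 in vehicle (-0.32 ± 0.38, limma adjusted p = 0.617), and without vehicle replicate 4 its fold change was 0.09. Ngfr, the p75 neurotrophin receptor, which basal keratinocytes also express, ranged from 21.1 to 47.0 in SP2509 and from 7.42 to 38.6 in vehicle (0.47 ± 0.42, limma adjusted p = 0.498). Its lowest value rested on 4 reads in vehicle replicate 1, and without that library its fold change was -0.03.

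Kcna1 encodes the potassium channel subunit that sits beneath the myelin beside the node (chromosome 6, 126640397 to 126646384). It stood at 79.7, 75.1, 92.5, 54.7, 35.6 and 92.0 normalised reads in SP2509 and at 152, 161, 127 and 116 in vehicle. Every SP2509 library lay below every vehicle library. Kcna1 fell by 1.01 on the log2 scale (SE 0.27, limma adjusted p = 0.0376, 0.108 with pairs merged), at 76.8 ± 22.2 in SP2509 and 139 ± 21.2 in vehicle. Of the 31 genes, 3 (Cnp, Gap43 and Kcna1) had every SP2509 library below every vehicle library, which is 9.68% of them, beside 5.11% of all genes tested. None had every SP2509 library above, beside 6.54% of all genes.

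The other node and axon genes did not pass. Gldn, the Schwann cell ligand that gathers the node, ranged from 19.1 to 88.2 normalised reads in SP2509 and from 56.3 to 109 in vehicle (-0.38 ± 0.41 SE, limma adjusted p = 0.582), with 19.1 and 36.4 in SP2509 replicates 4 and 5, against 64.8 to 88.2 in replicates 1, 2, 3 and 6. Without replicates 4 and 5 its fold change was 0.14. Nrcam, its partner in the axon membrane, rested on 9 reads in its lowest library and ranged from 13.1 to 17.9 in SP2509 and from 15.4 to 26.7 in vehicle (-0.29 ± 0.29, limma adjusted p = 0.544). Sema3b, a secreted semaphorin, stood at 630 and 606 in SP2509 replicates 4 and 5, while the remaining SP2509 libraries had 299 to 488, against 429 to 714 in vehicle (-0.41 ± 0.24, limma adjusted p = 0.281).

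None of the 5 calls held when every library was left out in turn. Without vehicle replicate 1 all of them were lost. Cnp was also lost without vehicle replicate 2 and without SP2509 replicate 1, 3, 4 or 5, with limma adjusted p-values of 0.0532 to 0.0777. Kcna1 was also lost without vehicle replicate 2, 3 or 4 and without SP2509 replicate 1, 2 or 4 (limma adjusted p = 0.0587 to 0.108). Ncam1 was lost without every library except SP2509 replicate 6 and vehicle replicate 3 (limma adjusted p = 0.0651 to 0.138). Ncmap and Gap43 were lost without every library except SP2509 replicate 6 (limma adjusted p = 0.0622 to 0.119 and 0.0569 to 0.114). The log2 fold changes stayed negative throughout, between -0.81 and -0.57 for Cnp, -1.16 and -0.85 for Ncmap, -1.03 and -0.72 for Ncam1, -1.18 and -0.94 for Gap43, and -1.09 and -0.82 for Kcna1.

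Myelinating and non-myelinating genes were set side by side to see whether 1 kind of Schwann cell gene differed more. The median log2 fold change was -0.69 for the 16 myelinating genes, with 14 below 0 and 2 called lower, and -0.38 for the 7 non-myelinating genes, with 6 below 0 and 2 called lower. The called genes were 12.5% of the myelinating and 28.6% of the non-myelinating genes, beside 4.15% of all genes tested. Over all genes tested, 48.1% were below 0 and the median was 0.02. The difference of the class medians was -0.31. Leaving out 1 library moved it to between -0.56 and -0.04, and without vehicle replicates 1 and 2 it was 0.26, with medians of -0.40 for myelinating and -0.66 for non-myelinating genes. Within libraries, the mean deviation of the myelinating genes minus that of the non-myelinating genes was -0.12, -0.20, 0.33, -0.19, -0.17 and 0.17 on the log2 scale in SP2509 replicates 1 to 6, and 0.26, 0.53, -0.14 and -0.47 in vehicle replicates 1 to 4. All SP2509 values lay inside the vehicle range.

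The mean deviation of the 16 myelinating genes was -0.25, -0.25, 0.06, -0.54, -0.61 and 0.27 in SP2509 replicates 1 to 6, and 0.39, 0.74, -0.002 and 0.19 in vehicle replicates 1 to 4. SP2509 replicates 3 and 6 lay inside the vehicle range. For the 7 non-myelinating genes the values were -0.13, -0.05, -0.28, -0.35, -0.44 and 0.10 in SP2509, and 0.13, 0.22, 0.14 and 0.66 in vehicle, where all SP2509 libraries lay below all vehicle libraries, replicate 6 by a narrow margin. Without SP2509 replicates 4 and 5 the median log2 fold change was -0.47 for the myelinating and -0.35 for the non-myelinating genes. No gene of the 31 was called in that fit, beside 233 higher and 169 lower of all genes.

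**Figure D4:**
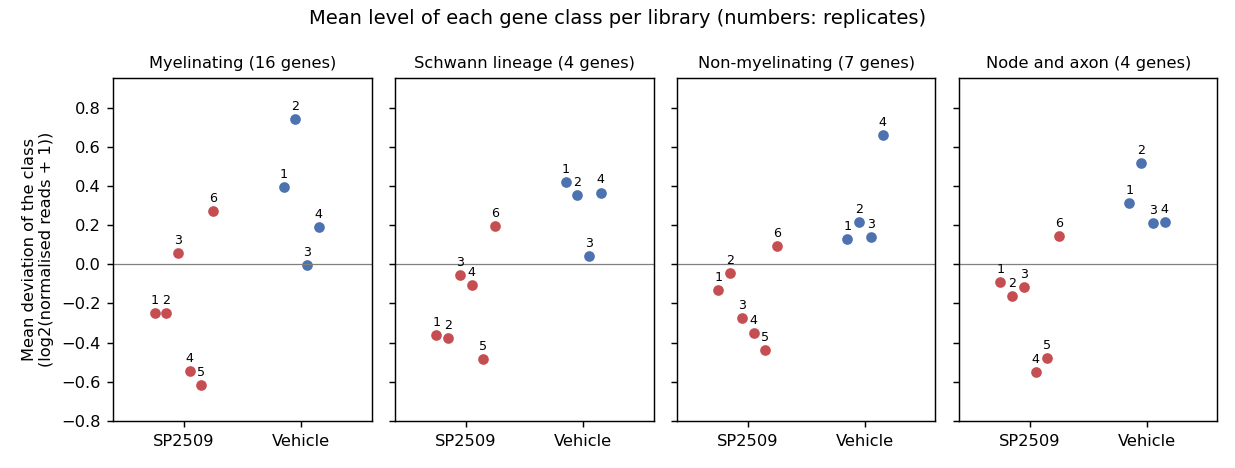
Mean deviation of log2(normalised reads + 1) over the genes of each class (y axis) in every library, SP2509 left and Vehicle right, with replicate numbers above the points. Myelinating genes are lowest in SP2509 replicates 4 and 5 (-0.54 and -0.61) and highest in Vehicle replicate 2 (0.74), and non-myelinating genes are highest in Vehicle replicate 4 (0.66).

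Further genes of the same biology were read from lists that hold no member. Over all genes tested, 4.15% were called lower and 4.95% higher, with a median log2 fold change of 0.02. Of 14 tested genes of other Schwann cell and myelin functions, 1 was lower and none higher (median log2 fold change -0.21). Lgi4, a ligand that Schwann cells need to myelinate, was at -0.65 ± 0.24 (SE, limma adjusted p = 0.0999). Its exons share 2059 bases with Fxyd3 on the opposite strand, which had 9497 reads in all against 1379 for Lgi4, and without a known strand setting their reads cannot be told apart. Aspa was at -0.54 ± 0.20 (limma adjusted p = 0.104). Of 16 tested node and axon genes, 2 were lower and 1 higher (median -0.24). Kcna2, the channel subunit that pairs with that of Kcna1, stood at 295, 265, 256, 188, 137 and 281 normalised reads in SP2509 and at 749, 640, 456 and 488 in vehicle. Every SP2509 library lay below every vehicle library, and Kcna2 fell by 1.31 (SE 0.22, limma adjusted p = 0.0118, 0.0718 with pairs merged). Nfasc, the neurofascin of the node and the paranode, fell by 1.04 (SE 0.28, limma adjusted p = 0.0420, 0.108 merged). Sptbn4, the spectrin beneath the nodal membrane, was at -1.003 ± 0.31 (limma adjusted p = 0.0585). Tac1, the gene of the sensory peptide substance P, rose by 1.86 (SE 0.46, limma adjusted p = 0.0318, 0.100 merged), on 219 reads in all in SP2509 and 28 in vehicle.

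Glial growth factors, their receptors and repair genes showed no calls, beside 4.15% of all genes tested called lower and 4.95% called higher. Of 14 tested growth factor and receptor genes none passed (median -0.01). The receptor gene Ret was at 0.80 ± 0.31 (SE, limma adjusted p = 0.121) and its co-receptor Gfra1 at -0.74 ± 0.27 (limma adjusted p = 0.102). Nrg1, the axonal signal for myelination, was at 0.59 ± 0.29 (limma adjusted p = 0.208) and the neurotrophin receptor gene Ntrk3 at -0.56 ± 0.24 (limma adjusted p = 0.159). Of 4 tested genes of the repair Schwann cell, formed after nerve injury, none passed (median -0.002). Among them Jun, the injury factor of Schwann cells and a stress gene of many cells, was at 0.46 ± 0.22 (limma adjusted p = 0.201), with 232 exon bases shared with the antisense gene Junos, and Sox2, which lingual epithelium also expresses, at -0.15 ± 0.33 (limma adjusted p = 0.805). Autonomic neurons of the tongue were represented by 6 markers, of which 4 were tested and none passed, with sums of 71.6 to 168 in SP2509 and 32.2 to 341 in vehicle.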

How the data were processed

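For tongue RNA the authors deposited 1 table of normalised signal values. HISAT2, featureCounts and mm10 are named, without versions or roles, per the submitters' processing notes, and no source used here gives annotation release, strand setting or scaling tool. Dividing the deposited values by what 1 read is worth in each library gave whole numbers (tolerance 0.01) for 100% of values, so the signal is a read count over 1 size factor per library. Of 27151 Ensembl IDs, 27113 matched a symbol, and coordinates and exon lengths come from GENCODE M21 (GRCm38, the build of mm10). Sequences are from RefSeq.

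The 31 genes and all lists were chosen with earlier results of these data known. The main test was a two-sided limma fit (version 3.58.1 in R 4.3.3; trend and robust options on) of log2(value + 1) over 10 libraries without covariates, on 17088 genes with at least 10 in at least 4 libraries. The genes named are all 31 members, with full values where called, and up to 4 genes of each pathway list by p. Marker lists are given as sums and counts, with few genes named. Of the genes so chosen, a few are not reported here. Between SP2509 replicates 1 and 2 and between 4 and 5 the median squared difference of genes with 1000 to 5000 reads was 3.48 and 3.72 times the Poisson expectation, against 11.1 to 163 in other pairs. Alternatives covered the pseudocount, filter, scaling, tests with edgeR 4.0.16 and DESeq2 1.42.0 on whole reads, a replicate block, merged pairs and left-out libraries. The fit was tested on simulated data, with 200 changed genes per draw, each with a mean of at least 50 normalised reads. It recovered 2.33% of changes of 1.5-fold, 59% of 2-fold and 97.3% of 4-fold. The simulated libraries were drawn independently of one another, so the close SP2509 pairs were not modelled. Recovery in the real libraries may be lower. A gene that did not pass may thus still have changed. Python 3.11.15 (NumPy 2.4.6, pandas 2.3.3, matplotlib 3.10.9, SciPy 1.17.1) produced tables and plots.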

Additional observations from a re-analysis of the deposited data

Results flagged for a closer look

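In 5 of 62 groups of 4 values (31 genes in SP2509 units and in vehicle), 1 value stood far from the other 3 by Dixon's criterion, where chance gives about 1 in 20. Scn7a was at 486 normalised reads in SP2509 replicate 6 and at 396 to 403 in the other SP2509 units. In vehicle, Mag was at 238 and Cnp at 1052 in replicate 2, against 121 to 138 and 695 to 755 in the other vehicle libraries. Sox10 was at 478 in vehicle replicate 1, against 339 to 358 in the others, and Gfra3 at 99.7 in vehicle replicate 4, against 26.1 to 35.2.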

How the results depend on the processing

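Of the 31 genes, 25 kept the sign of their fold change under all 27 alternatives. The signs that turned were those of Cadm4 (0.05 in the main result, -0.06 to 0.17 with 1 library left out, -0.04 under quantile scaling, -0.10 when scaled to reads outside mitochondrial genes, -0.06 with the replicate block and also without SP2509 replicate 6 and -0.05 without vehicle replicate 3), Pou3f1 (-0.19 to 0.10 with 1 library left out, 0.04 in edgeR and in edgeR with pairs summed, 0.19 with the block, 0.004, 0.10 and 0.02 without SP2509 replicate 4, SP2509 replicate 5 and vehicle replicate 2, and 0.24 without SP2509 replicates 4 and 5), Ngfr (-0.03 without vehicle replicate 1, up to 0.71 without another library), Gfra3 (0.09 without vehicle replicate 4, down to -0.55 without another library), Gldn (0.14 without SP2509 replicates 4 and 5) and L1cam (0.10 without vehicle replicates 1 and 2). The cause was not tested. Scaling to reads outside mitochondrial genes moved the median of all genes to -0.13.

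The counts of lower genes among the 31 (5), the myelinating (2) and the non-myelinating genes (2) were 3, 2 and 0 without the filter, 8, 5 and 2 with quantile scaling, 13, 9 and 3 with scaling to reads outside mitochondrial genes, 3, 1 and 1 in edgeR, 12, 8 and 3 in DESeq2, 1, 0 and 1 without the trend, and 9, 7 and 1 with the replicate block. They were 0, 0 and 0 with pairs merged, in edgeR with pairs summed, without SP2509 replicates 4 and 5, without SP2509 replicates 1 and 2, and without vehicle replicates 1 and 2, and 5, 1 and 3 in DESeq2 with pairs summed. With 1 library left out they ranged over 0 to 14, 0 to 10 and 0 to 3, and no gene of the 31 was called higher. The difference of the class medians lay between -0.56 and -0.04 with 1 library left out and was 0.26 without vehicle replicates 1 and 2. Over all genes, 846 higher and 709 lower genes became 553 and 479 without the filter, 666 and 1060 under quantile scaling, and 1251 and 582 under TMM scaling. These counts were 297 and 1442 when scaled outside mitochondrial genes, 912 and 585 in edgeR, and 1606 and 1394 in DESeq2. They were 490 and 481 without the trend, 1125 and 769 with the replicate block, and 851 and 807 in DESeq2 with pairs summed. Without SP2509 replicates 4 and 5 they were 233 and 169, and without SP2509 replicates 1 and 2 they were 81 and 72. They were 0 and 0 with pairs merged, in edgeR with pairs summed and without vehicle replicates 1 and 2. With 1 library left out they ranged over 171 to 1987 and 106 to 1500. The alternatives that leave out 2 libraries together and those with pairs summed were chosen after seeing the data. Same-numbered SP2509 and vehicle libraries deviated together with correlations of 0.13, 0.03, -0.20 and 0.13 for replicates 1 to 4. The labels do not say whether the numbers pair the libraries. Low correlations cannot exclude a pairing, as the libraries also differed in tissue mix. Depth limits the low genes most: Nrcam rested on 9 reads and Ngfr on 4 in their lowest library.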
